A study of Mus with 12 samples.

Results

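The Schlafen family genes of mouse blood are described here across 4 treatment groups. The members are the rows of a whole blood RNA-seq table named Slfn1, Slfn2, Slfn3, Slfn4, Slfn5, Slfn8 and Slfn9, which are 7 of its 25247 genes. They were chosen by symbol with earlier results of the same libraries known, on their expression levels across the 4 groups and on the contrast of Slfn4 with the other genes. Their levels and fold changes are therefore given as a description. They were part of the fit over all genes, and the counts of members called in it are no independent test. Of the 7 members, 5 (Slfn1, Slfn2, Slfn4, Slfn5 and Slfn8) passed the filter on low values, which asked for 3 or more of the 12 libraries with an FPKM of 1 or higher, while Slfn3 and Slfn9 did not. FPKM scales fragments by gene length and by the fragment total of the library, so levels can be compared between genes.

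Female BALB/c mice, aged 6 weeks at purchase and with no transgene or knockout named, had the skin of the back and the right ear treated in 4 ways, and blood taken on day 30 gave 3 libraries per group. The labels number these libraries but do not say whether each came from a single mouse. Solvent mice received the vehicle only, acetone and olive oil at 3:1. DNCB mice received 2,4-dinitrochlorobenzene, a hapten that sensitises the skin, at 1% and later at 0.5%, as a model of atopic dermatitis. In the remaining groups DNCB was combined with human umbilical cord mesenchymal stem cells at 2000000 cells per dose, given as 100 µL under the skin (scMSC) or as 50 µL under the skin with 50 µL into the tail vein (scivMSC). No group received DNCB with an injection that lacked cells, so cells and injection cannot be told apart.

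Schlafen genes take their name from the German word for sleep, after the growth arrest that the founding members caused in thymocytes. They encode short, intermediate and long proteins, of which the long ones carry a helicase-like region, and many of them are induced by interferons. Slfn1 and Slfn2 encode short proteins studied mainly in T cell growth control, and Slfn2 is needed to keep T cells and monocytes quiescent. Slfn4 and Slfn3 encode intermediate proteins, and Slfn4 is known from macrophages and other myeloid cells. Slfn5, Slfn8 and Slfn9 encode long proteins.

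All 7 members lie within 263.8 kb of chromosome 11, and 7 of 7 share a start or an end with the RefSeq annotation of GRCm38, as 46.7% of all 21414 symbols common to both do. The submitters' processing notes list mm8, so positions are named here by the GRCm38 match. Slfn4 (ENSMUSG00000000204) spans 83175186 to 83190216 on the plus strand, next to Slfn3 (ENSMUSG00000018986) at 83191330 to 83215154 on the same strand. Slfn2 (ENSMUSG00000072620) spans 83065112 to 83070678 and Slfn1 (ENSMUSG00000078763) spans 83116849 to 83122670, both on the plus strand. Slfn5 (ENSMUSG00000054404) opens the cluster at 82951349 to 82961906 on the plus strand. Slfn9 (ENSMUSG00000069793, 82978390 to 82991830) and Slfn8 (ENSMUSG00000035208, 83002158 to 83020810) lie on the minus strand. Because members resemble each other in sequence, how the counting divided reads between them is uncertain. Slfn2 overlaps the antisense gene Gm20234, which held at most 33 counts in any library, and Slfn5 overlaps the antisense gene Slfn5os, which held at most 6. Whether strand was used in counting is not given in the sources used here.

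The libraries held between 52.2e6 and 65.1e6 estimated counts. Haemoglobin genes took from 78.4% of them in DNCB replicate 2 to 89.0% in scivMSC replicate 2. Genes with 4 or more counts were fewest in scivMSC replicate 2, at 11806, and most in Solvent replicate 3, at 17350. Scaled by library totals, as the FPKM values are, the median log2 fold change over the 5527 tested genes was 0.06 for DNCB against Solvent. Against DNCB it was -0.63 for scMSC and -1.53 for scivMSC. Against Solvent these groups had -0.59 and -1.47, and scivMSC had -0.87 against scMSC. Values under TMM, a scaling that assumes most genes unchanged, are given beside many of the others, because it brought these medians to between -0.09 and 0.06.

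Slfn4 was the member that differed most between DNCB and Solvent blood. Its FPKM was 5.90, 6.02 and 7.22 in Solvent libraries but 57.5, 72.5 and 47.7 in DNCB libraries. It was 8.003, 5.64 and 8.27 in scMSC and 4.02, 1.54 and 3.43 in scivMSC. Every DNCB library lay above every other library, the scMSC and Solvent libraries overlapped, and every scivMSC library lay below the other groups. DNCB libraries averaged 59.2 ± 12.5 (SD, n = 3) and Solvent libraries 6.38 ± 0.729 (SD, n = 3), while scMSC libraries averaged 7.30 ± 1.45 (SD, n = 3) and scivMSC libraries 3.00 ± 1.30 (SD, n = 3).

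**Figure D1:**
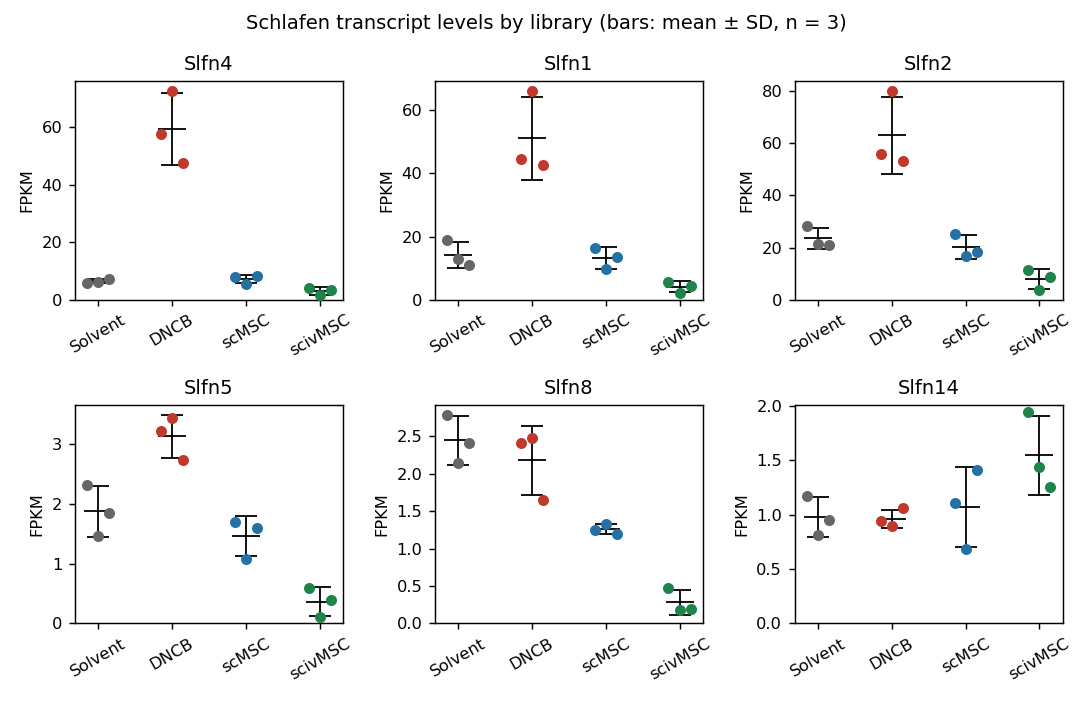
FPKM on a linear axis for Slfn4, Slfn1, Slfn2, Slfn5, Slfn8 and Slfn14, a panel each, with a point per library in the groups Solvent, DNCB, scMSC and scivMSC and bars of the mean ± SD. The Slfn4 points of DNCB lie between 47.7 and 72.5, above the 9 others, while the Slfn8 points of DNCB overlap Solvent.

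The log2 fold change of Slfn4 in DNCB against Solvent was 3.22 (SE 0.34), a 9.29-fold higher level, and 2.98 under TMM. Against DNCB the log2 fold change was -3.03 (SE 0.34) for scMSC, an 8.17-fold lower level, and -4.31 (SE 0.36) for scivMSC, a 19.8-fold lower level. Relative to the median of all tested genes these were -2.40 in scMSC and -2.78 in scivMSC, and under TMM -2.34 and -2.74. The subcutaneous group overlapped Solvent, with a Slfn4 log2 fold change of 0.18 (SE 0.32) between them, or 0.64 under TMM. After the combined route it was lower than in Solvent by a log2 fold change of -1.09 (SE 0.32), but this direction turned under TMM, to 0.24.

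Slfn2 was the most abundant member in 11 of the 12 libraries, and Slfn1 followed it in the 9 libraries outside DNCB. Slfn2 had an FPKM of 28.3, 21.4 and 21.1 in Solvent, 55.9, 79.9 and 53.2 in DNCB, 25.2, 16.8 and 18.3 in scMSC and 11.4, 3.90 and 8.89 in scivMSC. Slfn1 had 18.8, 12.8 and 10.9 in Solvent, 44.5, 66.1 and 42.6 in DNCB, 16.4, 9.61 and 13.6 in scMSC and 5.65, 2.23 and 4.32 in scivMSC. Both genes had the order seen for Slfn4, with all DNCB libraries highest, Solvent and scMSC overlapping, and all scivMSC libraries lowest. DNCB libraries averaged an Slfn2 FPKM of 63.0 ± 14.7 (SD, n = 3), Solvent libraries 23.6 ± 4.07 (SD, n = 3), scMSC libraries 20.1 ± 4.50 (SD, n = 3) and scivMSC libraries 8.05 ± 3.81 (SD, n = 3). For Slfn1 the averages were 51.1 ± 13.01 (SD, n = 3), 14.2 ± 4.14 (SD, n = 3), 13.2 ± 3.43 (SD, n = 3) and 4.07 ± 1.72 (SD, n = 3) in the same order.

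These short members differed less than Slfn4 between DNCB and Solvent. The log2 fold change was 1.85 (SE 0.36) for Slfn1, a 3.61-fold higher level, and 1.42 (SE 0.35) for Slfn2, a 2.68-fold higher level. In scMSC against DNCB, Slfn1 was 3.90-fold lower (log2 fold change -1.96, SE 0.36) and Slfn2 was 3.16-fold lower (-1.66, SE 0.35). Under TMM these differences were smaller, at -1.28 for Slfn1 and -0.96 for Slfn2, which is under 2-fold. The scivMSC levels were 12.6-fold lower for Slfn1 (-3.65, SE 0.39) and 7.83-fold lower for Slfn2 (-2.97, SE 0.37). Relative to the median of all tested genes, the log2 fold changes in scivMSC against DNCB were -2.13 for Slfn1 and -1.44 for Slfn2, and under TMM they were -2.08 and -1.42. Against Solvent, scMSC gave -0.11 (SE 0.35) for Slfn1 and -0.24 (SE 0.34) for Slfn2, and TMM turned these to 0.43 and 0.28. The scivMSC values against Solvent were -1.80 (SE 0.36) for Slfn1 and -1.55 (SE 0.35) for Slfn2. Relative to the median of all tested genes these were -0.33 and -0.08, and under TMM -0.38 and -0.18.

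The long members were expressed at low levels and parted from each other. Slfn5 had an FPKM of 2.32, 1.47 and 1.85 in Solvent, 3.22, 3.43 and 2.73 in DNCB, 1.69, 1.08 and 1.60 in scMSC and 0.595, 0.106 and 0.395 in scivMSC. Slfn8 had 2.79, 2.15 and 2.41 in Solvent, 2.41, 2.48 and 1.65 in DNCB, 1.25, 1.34 and 1.19 in scMSC and 0.477, 0.177 and 0.191 in scivMSC. The DNCB libraries of Slfn5 all lay above those of Solvent, whereas for Slfn8 the DNCB and Solvent libraries overlapped. For Slfn8 every scMSC library also lay below every Solvent library, which held for no other tested member. DNCB libraries averaged 3.13 ± 0.359 (SD, n = 3) for Slfn5 and 2.18 ± 0.460 (SD, n = 3) for Slfn8, and Solvent libraries 1.88 ± 0.424 (SD, n = 3) and 2.45 ± 0.324 (SD, n = 3). The averages of scMSC libraries were 1.46 ± 0.333 (SD, n = 3) and 1.26 ± 0.0717 (SD, n = 3), and those of scivMSC libraries 0.365 ± 0.246 (SD, n = 3) and 0.282 ± 0.170 (SD, n = 3).

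The log2 fold change in DNCB against Solvent was 0.74 (SE 0.45) for Slfn5 and -0.16 (SE 0.39) for Slfn8. In scMSC against DNCB it was -1.11 (SE 0.45) for Slfn5 and -0.80 (SE 0.40) for Slfn8, or -0.48 and -0.17 relative to the median of all tested genes and -0.45 and -0.09 under TMM. The level of both was lowest in scivMSC, at -3.09 (SE 0.48) for Slfn5 and -2.95 (SE 0.43) for Slfn8 against DNCB. Relative to the median these were -1.56 and -1.42. In scMSC against Solvent, Slfn8 had a log2 fold change of -0.96 (SE 0.40), which was -0.43 under TMM, and Slfn5 had -0.38 (SE 0.44), which TMM turned to 0.14.

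Slfn3 and Slfn9 were near the lower limit of detection. Slfn3, the intermediate neighbour of Slfn4, had an FPKM of 0.251, 0.119 and 0.0559 in Solvent, 0.151, 0.0850 and 0.0502 in DNCB and 0.135, 0.0695 and 0.178 in scMSC, and was listed at 0 in all 3 scivMSC libraries. Taking 12 counts per library as the floor, its mean in scivMSC was at least 2.08-fold below that of scMSC and 2.35-fold below that of Solvent. The lowest scMSC and Solvent libraries, at 15 and 14 counts, were close to this floor. DNCB replicate 3, at 11 counts, was under it, so scivMSC cannot be set apart from DNCB. Slfn9 had between 4 and 104 counts per library and an FPKM of at most 0.262. Neither gene showed the higher DNCB level of Slfn4, since their DNCB libraries lay within the Solvent range for Slfn9 and reached only 0.151 for Slfn3.

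**Figure D2:**
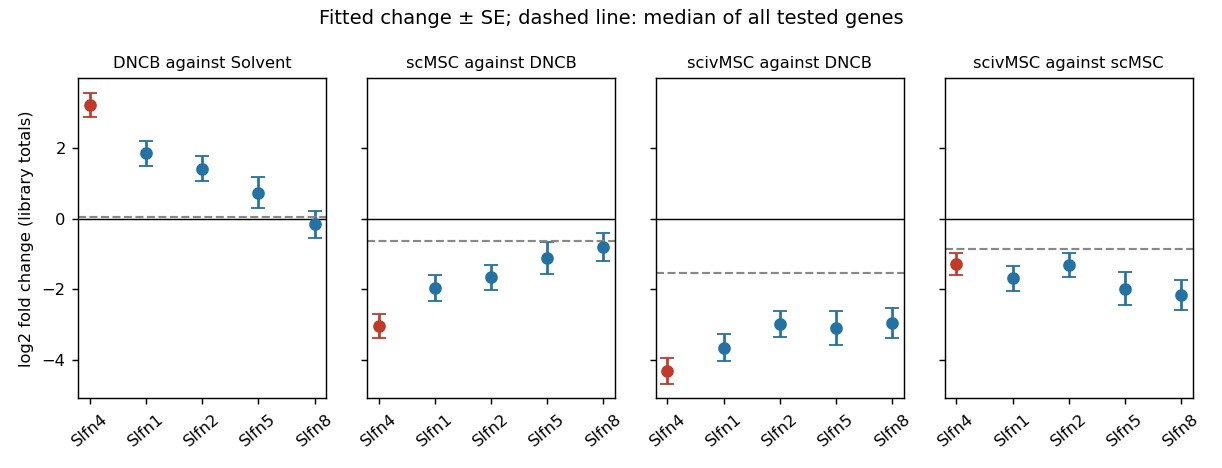
Log2 fold change, scaled by library totals, of the 5 members that passed the filter in 4 comparisons, with bars of 1 SE and a dashed line at the median over all tested genes. Against Solvent, DNCB has Slfn4 at 3.22 and Slfn8 at -0.16, and in the panel of scivMSC against DNCB the members lie between -4.31 and -2.95 with the line at -1.53.

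A gene was called when edgeR's quasi-likelihood test gave a Benjamini-Hochberg adjusted p under 0.05 and the fold change was over 2. The member counts that follow are read against the share of all tested genes, and nothing is drawn from them, because the members were chosen on these comparisons. In DNCB against Solvent, 3 of 5 members (Slfn1, Slfn2 and Slfn4) were called higher, where 15.6% of tested genes were called higher and 4.87% lower. Under TMM again 3 were called higher, beside 16.1% of genes higher and 11.5% lower. In 4 of 5 members every DNCB library lay above every Solvent library, as in 25.0% of tested genes.

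In the scMSC libraries 3 members (Slfn1, Slfn2 and Slfn4) were called lower than in DNCB, with 24.9% of tested genes called lower and 1.27% higher. TMM called 2 lower (Slfn1 and Slfn4, without Slfn2), beside 12.3% of genes lower and 8.74% higher. All 5 members had scMSC libraries entirely below DNCB, as 49.8% of tested genes did. In the scivMSC libraries 5 of 5 members were called lower than in DNCB, with 62.0% of tested genes called lower and 1.43% higher. TMM also called 5 lower, beside 18.9% of genes lower and 20.6% higher, and the libraries of all 5 lay entirely below DNCB, as in 67.9% of tested genes.

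The routes were also compared directly. Against scMSC, scivMSC had 5 members called lower, with 30.4% of tested genes called lower and 0.344% higher, and their libraries did not overlap, as in 46.7% of tested genes. Under TMM 2 of these calls were made (Slfn5 and Slfn8), beside 4.92% of genes lower and 13.1% higher, and a fit of these 6 libraries alone called 0 members. The log2 fold changes were -1.28 for Slfn4, -1.69 for Slfn1, -1.31 for Slfn2, -1.98 for Slfn5 and -2.15 for Slfn8. Whether the members differed from each other in this was not tested. Under TMM they were -0.40, -0.81, -0.46, -1.19 and -1.33.

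Against Solvent, 0 of 5 members were called in scMSC by edgeR under either scaling, by DESeq2 or by limma, and 1 member, Slfn8, had an unadjusted p under 0.05 in edgeR. Of all tested genes 0.326% were called higher and 0.326% lower, or 7.29% and 1.21% under TMM. The libraries of 1 member, Slfn8, lay entirely below Solvent, as in 40.6% of tested genes. In scivMSC against Solvent 5 members were called lower, with 59.2% of tested genes called lower and 2.59% higher, and 62.6% of genes had scivMSC libraries entirely below Solvent, as all 5 members did. TMM called 2 members lower (Slfn5 and Slfn8), beside 13.4% of genes lower and 22.4% higher.

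In DNCB and in scivMSC the same libraries were highest and lowest for all tested members. Of the 5 tested members, DNCB replicate 2 was the highest of its group in 5 and DNCB replicate 3 the lowest in 5. In the scivMSC group replicate 1 was the highest in 5 and replicate 2, the library with the fewest detected genes, the lowest in 5. In scMSC replicate 1 was the highest in 3 and replicates 2 and 3 in 1 each, and in Solvent replicate 1 was the highest in 4 and the lowest in 1. The coefficient of variation of the 5 tested members within a group ran from 42.4% to 67.3% in scivMSC and from 5.69% to 29.2% in the other groups.

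Ratios of FPKM within a library do not depend on library scaling and show how Slfn4 stood to the short members. The ratio of Slfn4 to Slfn1 FPKM was 0.314, 0.469 and 0.665 in Solvent, 1.29, 1.10 and 1.12 in DNCB, 0.487, 0.586 and 0.610 in scMSC and 0.712, 0.689 and 0.794 in scivMSC. Slfn4 exceeded Slfn1 in every DNCB library and in none of the 9 others. Every scivMSC ratio also lay above every scMSC and Solvent ratio. On the scale of log2(FPKM + 1) the ratio was higher in DNCB than in Solvent by 1.23, while scMSC and scivMSC differed from DNCB by -0.98 and -0.56. This scale depends on library scaling through the added 1, and it understates differences where a level is near or below 1.

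The ratio of Slfn4 to Slfn2 gave a like order. It was 0.209, 0.282 and 0.343 in Solvent, 1.03, 0.907 and 0.896 in DNCB, 0.317, 0.336 and 0.451 in scMSC and 0.353, 0.394 and 0.386 in scivMSC. DNCB lay apart from all others, and the scMSC and scivMSC libraries overlapped. On the log2(FPKM + 1) scale DNCB differed from Solvent by 1.64, and scMSC and scivMSC differed from DNCB by -1.26 and -1.05.

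**Figure D3:**
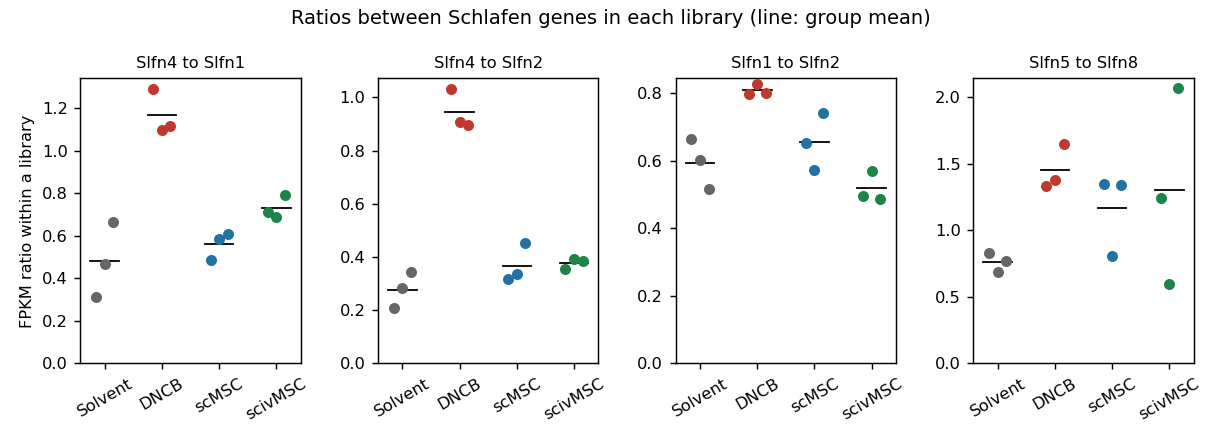
Ratio of FPKM within a library for Slfn4 to Slfn1, Slfn4 to Slfn2, Slfn1 to Slfn2 and Slfn5 to Slfn8, with a point per library in 4 groups and a line at each group mean. The DNCB points of Slfn4 to Slfn1 lie between 1.10 and 1.29, and the highest of the 9 others is at 0.794.

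Another pair of ratios was chosen after the values were seen. The ratio of Slfn1 to Slfn2 was 0.797, 0.826 and 0.801 in DNCB, above its highest value of 0.740 elsewhere, in scMSC replicate 3. Slfn1 and Slfn2 thus kept closer to each other than either kept to Slfn4, with group means between 0.518 and 0.808, beside 0.483 to 1.17 for Slfn4 to Slfn1 and 0.278 to 0.944 for Slfn4 to Slfn2. The ratio of Slfn5 to Slfn8 was 0.830, 0.684 and 0.767 in Solvent and 1.34, 1.38 and 1.65 in DNCB, without overlap. It was 1.35, 0.805 and 1.34 in scMSC, where 2 of the 3 values lay within the DNCB range, so DNCB did not stand apart in this ratio. In scivMSC it ran from 0.601 to 2.07, where both genes had few counts.

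As a share of the summed FPKM of the 7 members, Slfn4 made up 33.2% ± 1.65 (SD, n = 3) for DNCB but 13.4% ± 3.26 (SD, n = 3) for Solvent. For scMSC its share was 16.8% ± 2.05 (SD, n = 3), and for scivMSC 19.1% ± 0.873 (SD, n = 3). Slfn2 made up less of the family in DNCB, at 35.2% ± 0.988 (SD, n = 3), than in Solvent, at 48.3% ± 0.106 (SD, n = 3), and 46.2% ± 3.33 (SD, n = 3) and 50.6% ± 1.34 (SD, n = 3) in scMSC and scivMSC. The share of Slfn1 kept to between 26.2% and 30.1% in the group means. The summed FPKM itself averaged 179 ± 40.5 (SD, n = 3) for DNCB, 48.8 ± 8.51 (SD, n = 3) for Solvent, 43.6 ± 9.18 (SD, n = 3) for scMSC and 15.8 ± 7.21 (SD, n = 3) for scivMSC.

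**Figure D4:**
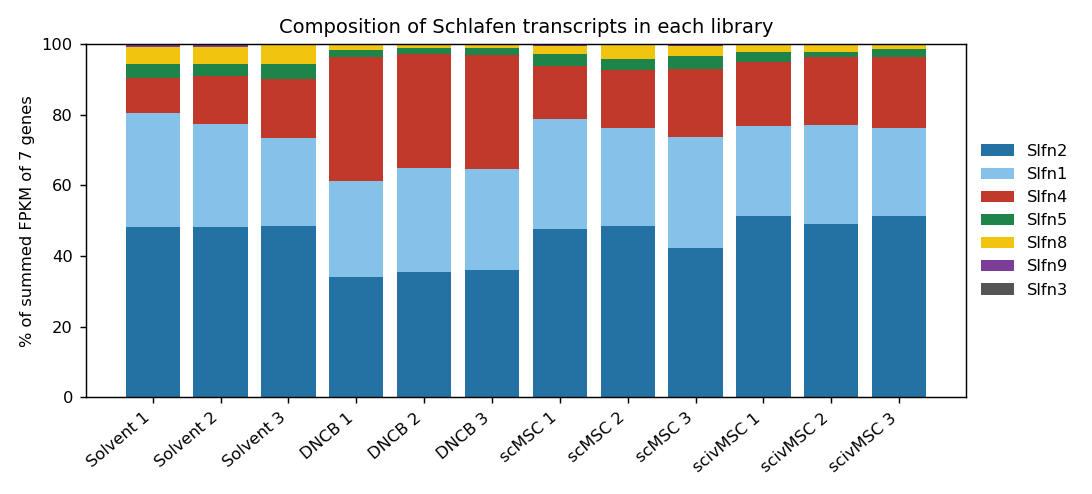
Stacked bars of the share of the summed FPKM of the 7 members held by each, in percent, with 1 bar per library. Slfn4 takes a mean of 33.2% in DNCB and 13.4% in Solvent, and Slfn2 35.2% and 48.3%.

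The order of the most abundant members was Slfn2, Slfn1, Slfn4 in all 9 libraries outside DNCB. In DNCB replicates 2 and 3 Slfn4 stood between Slfn2 and Slfn1, and in DNCB replicate 1 it stood above both. Slfn5 and Slfn8 remained below these 3 genes in all 12 libraries.

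Among the remaining rows of the family, Slfn14 differed in direction from the tested members in scivMSC against DNCB and against Solvent. Slfn14, a long member described as an RNA-cleaving enzyme of reticulocytes, lies on the minus strand at 83275110 to 83286726 of chromosome 11, beyond Slfn3. Its FPKM was 1.17, 0.816 and 0.948 in Solvent, 0.938, 0.891 and 1.06 in DNCB, 1.11, 0.683 and 1.41 in scMSC and 1.95, 1.43 and 1.25 in scivMSC. All scivMSC libraries lay above all DNCB and Solvent libraries, opposite to the 5 tested members.

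Slfn14 is not among the 7 members, and its values were tested. The fitted difference of DNCB from Solvent was -0.02 on the log2 scale (SE 0.38), with an adjusted p of 0.976 from edgeR. In scivMSC against DNCB it was 0.68 (SE 0.38, adjusted p 0.122), but 2.30 with an adjusted p of 3.55e-05 under TMM, so whether it passed depended on the scaling. The pseudogene row Slfn10-ps had at most 68 counts in any library and was listed at 0 in all scivMSC libraries. It was also at 0 in scMSC replicates 1 and 3. With 12 and 4 counts, DNCB replicates 1 and 3 were at or under the floor of 12, so scivMSC cannot be set apart from DNCB.

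Whole blood holds many cell types, and in such bulk samples fewer cells of a type cannot be told apart from less RNA per cell. Of 14 T cell markers, 12 were called lower in DNCB against Solvent and 0 higher, beside 4.87% and 15.6% of all tested genes. The median log2 fold change of these markers was -1.56. Cd28, a costimulatory receptor, was at -1.88 (adjusted p 0.00721), Cd8a at -1.78 (adjusted p 0.00299) and Cd4 at -1.75 (adjusted p 0.0199). The summed FPKM of the 14 markers ran from 99.3 to 171 in Solvent, 38.8 to 55.5 in DNCB, 54.9 to 75.5 in scMSC and 17.6 to 36.7 in scivMSC. Slfn1 and Slfn2, which are often described as T cell members, were thus higher in DNCB where the T cell markers were lower, and they are named here by symbol only.

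Neutrophil markers had the direction of Slfn4, Slfn1 and Slfn2 in the comparisons with DNCB. In those of scMSC and scivMSC with Solvent, likeness in direction depended on the gene and on the scaling. All 10 neutrophil markers were called higher in DNCB against Solvent, beside 15.6% of all tested genes, with a median log2 fold change of 4.96. Among them were Ltf, which encodes lactoferrin, at 6.50 (adjusted p 8.52e-08), the surface antigen gene Ly6g at 6.26 (adjusted p 8.52e-08) and the granule peptide gene Camp at 5.92 (adjusted p 1.14e-07). All 10 were called lower in scMSC and in scivMSC against DNCB, beside 24.9% and 62.0% of tested genes, with medians of -3.50 and -4.22. Against Solvent, 4 of the 10 were called higher in scMSC, with a median of 1.10, beside 0.326% of all tested genes. In scivMSC 4 were called higher and 1 lower, with a median of 0.57, beside 2.59% and 59.2% of all tested genes. Slfn4 was at 0.18 and -1.09 in the same comparisons, Slfn1 at -0.11 and -1.80, and Slfn2 at -0.24 and -1.55. Under TMM the marker medians were 1.64 and 1.94. The TMM values were 0.64 and 0.24 for Slfn4, 0.43 and -0.38 for Slfn1, and 0.28 and -0.18 for Slfn2. The summed FPKM of the 10 neutrophil markers ran from 217 to 441 in Solvent, 6640 to 10450 in DNCB, 545 to 693 in scMSC and 221 to 670 in scivMSC.

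Of 7 tested monocyte markers, 4 were called higher in DNCB against Solvent, beside 15.6% of all tested genes, with a median of 1.47. They included Cd14, a lipopolysaccharide co-receptor, at 3.21 (adjusted p 0.00614), Lyz2, which encodes lysozyme, at 2.25 (adjusted p 0.000133) and the growth factor receptor gene Csf1r at 1.73 (adjusted p 0.00978). The 7 tested monocyte markers had medians of -2.11 in scMSC and -2.56 in scivMSC against DNCB, beside -0.63 and -1.53 for all tested genes. Lower calls numbered 5 and 6, beside 24.9% and 62.0% of all tested genes. Under TMM 5 were called lower in scMSC, beside 12.3% of all tested genes. In scivMSC TMM called 3 lower and 1 higher, beside 18.9% and 20.6%. Relative to Solvent the medians of these markers were -0.39 and -1.57, beside -0.59 and -1.47 for all tested genes. TMM gave -1.39, -0.99, 0.23 and -0.15 in the same order. Slfn2 was at -1.66 and -2.97 against DNCB and at -0.24 and -1.55 against Solvent, or -0.96, -1.42, 0.28 and -0.18 under TMM. Slfn1 was at -1.96, -3.65, -0.11 and -1.80 in these comparisons, or -1.28, -2.08, 0.43 and -0.38 under TMM. Slfn4 was at -3.03, -4.31, 0.18 and -1.09, or -2.34, -2.74, 0.64 and 0.24 under TMM. In DNCB against Solvent Slfn2 was at 1.42, Slfn1 at 1.85 and Slfn4 at 3.22. The summed FPKM of the 8 listed monocyte markers ran from 59.9 to 182 in Solvent, 414 to 670 in DNCB, 85.8 to 94.4 in scMSC and 80.5 to 112 in scivMSC. Most of this sum was Lyz2 alone, which averaged 483 of 523 in DNCB and 101 of 116 in Solvent. No marker of these 3 lists was at 0 in all libraries of a group. All 6 B cell markers and both tested NK cell markers were called lower in DNCB against Solvent, beside 4.87% of all tested genes. Of the 4 tested erythroid markers 0 were called there by edgeR under either scaling, DESeq2 or limma, and 0 had an unadjusted p under 0.05. Of 4 platelet markers 1 was called higher there, beside 15.6% of all tested genes. In scivMSC against DNCB the erythroid markers had a median of 0.69 with 0 called. Under TMM the median was 2.38 with 4 called higher, beside 20.6% of all tested genes. Slfn14 was at 0.68 and 2.30 in that comparison. The part of these cell markers in the Schlafen levels was not tested.

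**Figure D5:**
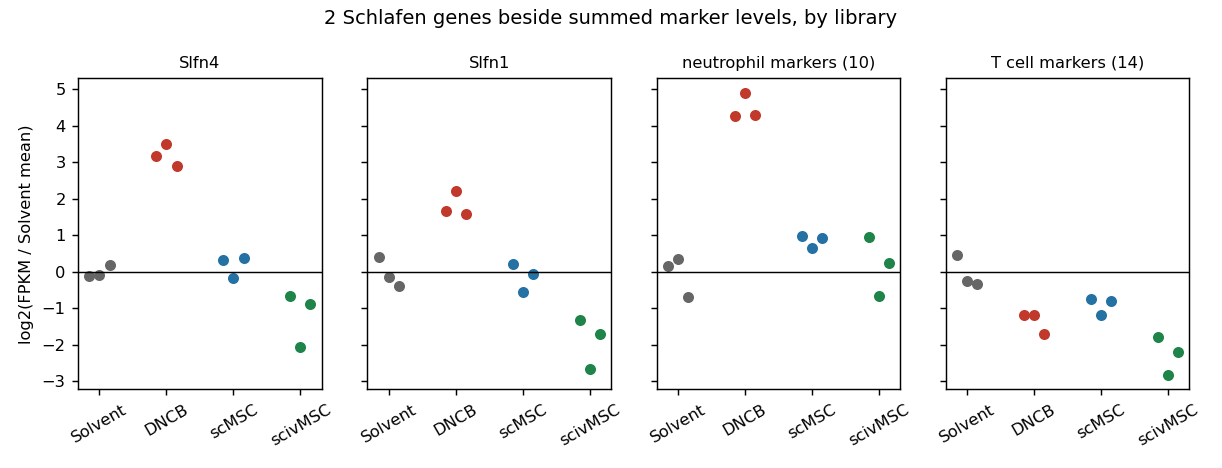
Level in each library as log2 of FPKM over the Solvent mean for Slfn4, Slfn1, the summed 10 neutrophil markers and the summed 14 T cell markers, with a point per library in 4 groups. DNCB points lie above 0 for Slfn4, Slfn1 and the neutrophil sum (6640 to 10450 FPKM) and below 0 for the T cell sum (38.8 to 55.5 FPKM).

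The T cell markers were also read in the groups given cells. In scMSC against DNCB 0 of 14 T cell markers were called by edgeR, with a median of 0.50 and 3 at an unadjusted p under 0.05, while TMM and DESeq2 each called 13 and limma called 0. Of all tested genes 1.27% were called higher and 24.9% lower there, or 8.74% and 12.3% under TMM. In scivMSC against DNCB 5 of 14 were called lower, beside 62.0% of all tested genes, with a median of -0.84 beside -1.53. Under TMM 1 was called higher, beside 20.6% of all tested genes. The median of the T cell markers thus lay above that of all tested genes in both comparisons, whereas the log2 fold changes of Slfn1, Slfn2 and Slfn4 lay below it.

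Since many Schlafen genes respond to interferon, a list of 30 interferon-stimulated genes was described beside them, of which 22 were tested. In DNCB against Solvent 5 were called higher and 0 lower, beside 15.6% and 4.87% of all tested genes, with a median log2 fold change of 0.10 beside 0.06 for all tested genes. Oasl1, an oligoadenylate synthetase-like gene, was at 2.30 (SE 0.44, adjusted p 0.00128), Oas2, which makes the activator of RNase L, at 2.04 (SE 0.35, adjusted p 0.000494) and the receptor transporter gene Rtp4 at 1.76 (SE 0.45, adjusted p 0.00975). The other calls, outside the naming rule and named after their values were seen, were Oas3 at 1.71 (adjusted p 0.000729) and Trim30a at 1.42 (adjusted p 0.0231). TMM called 5 higher and 1 lower, beside 16.1% and 11.5% of all tested genes, with a median of -0.06.

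Other genes of the list did not pass the test. Named after their values were seen, Isg15 was at -0.10 (adjusted p 0.864), the antiviral radical enzyme gene Rsad2 at 0.20 (adjusted p 0.646) and the transcription factor gene Irf7 at -0.43 (adjusted p 0.355). The mean FPKM of Oasl1 was 1.26 in Solvent, 6.27 in DNCB, 1.27 in scMSC and 0.619 in scivMSC, the order of groups found for Slfn4. Isg15, at a mean of 82.6 in Solvent and 77.3 in DNCB, overlapped between these groups.

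Against DNCB, 8 of the 22 interferon-stimulated genes were called lower and 1 higher in scMSC, beside 24.9% of all tested genes called lower, with a median of -0.54 beside -0.63. In scivMSC 14 were called lower and 0 higher, beside 62.0% of all tested genes called lower, with a median of -1.78 beside -1.53. Under TMM the calls were 5 lower and 2 higher in scMSC, beside 12.3% and 8.74% of all tested genes. In scivMSC they were 6 lower and 6 higher, beside 18.9% and 20.6%. In scivMSC against scMSC 8 were called lower, beside 30.4% of all tested genes, a count that fell to 3 without scMSC replicate 1 and to 0 in a fit of the 6 libraries alone. Against Solvent, 0 were called in scMSC by edgeR, with 5 at an unadjusted p under 0.05, 1 called under TMM, 1 by DESeq2 and 0 by limma, and 12 were called lower in scivMSC, beside 59.2% of all tested genes.

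Of 12 tested genes for interferon receptors and signalling, 3 were called higher in DNCB against Solvent and 0 lower. Of all tested genes 15.6% were called higher and 4.87% lower. Under TMM 2 of the 12 were called higher and 1 lower, beside 16.1% and 11.5% of all tested genes. Socs3, a feedback inhibitor of cytokine signalling, was at 2.09 (SE 0.38, adjusted p 0.000868), the interferon gamma receptor subunit gene Ifngr2 at 1.57 (SE 0.41, adjusted p 0.0103) and the type I receptor subunit gene Ifnar2 at 1.13 (SE 0.31, adjusted p 0.015). The call of Ifnar2 was lost under TMM, where it was at 0.96, under limma, at 0.92, and without Solvent replicate 3 or DNCB replicate 2. The call of Ifngr2 was lost without Solvent replicate 2, Solvent replicate 3 or DNCB replicate 2, where it was at 1.46, 1.36 and 1.32. Oasl1, Oas2, Rtp4 and Socs3 remained called under every alternative run. All 12 were called lower in scivMSC against DNCB, beside 62.0% of all tested genes, with a median of -2.04 beside -1.53. Under TMM 4 were called lower, beside 18.9% of all tested genes. In scMSC against DNCB 5 were called lower, beside 24.9% of all tested genes, with a median of -0.99 beside -0.63, and 3 under TMM, beside 12.3%.

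The genes whose pattern over the 12 libraries was most like each tested member were found by Pearson's r of log2(FPKM + 1), given here as a description. Only tested genes were searched, without those named Gm followed by digits or ending in Rik, so omitted genes may be closer. The libraries share scale and haemoglobin content, and r within groups is the r after removal of group means. Slfn4 was closest to Fbxl5, a ubiquitin ligase subunit gene for iron sensing (r = 0.990), the myeloid adaptor gene Card9 (r = 0.990) and the nucleoside transporter gene Slc28a2 (r = 0.989), with r within groups of 0.72, 0.83 and 0.64. Slfn1 was closest to Cdk2ap2 (r = 0.996), Emb (r = 0.996) and Sat1 (r = 0.994), which also followed it within groups, at 0.99, 0.98 and 0.96.

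Slfn2 was closest to Stk17b (r = 0.995), Cdk2ap2 (r = 0.994) and Tspan13 (r = 0.992), so Cdk2ap2 was shared with Slfn1. Slfn5 was closest to the PI3-kinase regulatory gene Pik3r5 (r = 0.987), Mbp (r = 0.987) and the kinase gene Sgk1 (r = 0.986). Slfn8 was closest to Tnks2 (r = 0.982), Parp14 (r = 0.981) and Trim56 (r = 0.981), of which Parp14 is in the interferon-stimulated list.

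Among the members, Slfn1 and Slfn2 were most alike (r = 0.99, and 0.94 within groups). Slfn4 had r of 0.95 with Slfn1 and 0.93 with Slfn2, and 0.75 and 0.84 within groups. Slfn8 was least like Slfn4 (r = 0.62, and 0.50 within groups). Slfn14 had r between -0.63 and -0.41 with the 5 members, but between 0.24 and 0.65 within groups.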

How the data were processed

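Total RNA of mouse blood was sequenced by the study in 12 libraries. The authors deposited 1 table of 25247 genes that holds FPKM and an estimated count per gene and library. The submitters' processing notes list Bowtie 0.12.2, HISAT2 2.0, StringTie 1.3.0 and mm8, with no role given. The deposited counts are whole, but among cells of 1 to 12 counts 29.0% hold exactly 4 and 16.0% hold 8, so they were treated as estimated counts, and a floor of 12 counts (3 fragments at 4 counts) per library was used. FPKM values deposited by the authors count haemoglobin in the total.

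Groups were taken from the labels. In R 4.3.3, edgeR 4.0.16 (quasi-likelihood, library totals, 1 fit of 4 group means over 12 libraries, Benjamini-Hochberg adjustment over 5527 genes) gave fold changes and calls. P-values measure only the spread between libraries of a group, which may be technical, since the labels do not say that each came from its own mouse. Alternatives were TMM, DESeq2 1.42.0, limma 3.58.1 on log2(FPKM + 1), no filter, 2 groups alone, a replicate block, a pseudocount of 0.1 and each library left out. The edgeR step was tested on simulated data.

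The members, gene lists and markers were chosen with earlier results of these data known. Named genes are all Schlafen rows and the 3 tested genes of each list with the largest difference between DNCB and Solvent. The 3 genes most like each tested member are also named, without those named Gm followed by digits or ending in Rik. Oas3, Trim30a, Isg15, Rsad2 and Irf7 were named after their values were seen. Sequences are not shown here. No columns were left out of the table, and no comparison columns were used. Floors cover counting error only.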

Additional observations from a re-analysis of the deposited data

How the results depend on the processing

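Slfn4 in scivMSC against Solvent turned from -1.09 on the log2 scale to 0.24 under TMM and 0.26 under DESeq2. The count of members called in scivMSC against scMSC was 5, but 2 under TMM, 2 under DESeq2, 3 under limma and 0 in a fit of those 2 groups alone, and it ran from 3 (without scivMSC replicate 2) to 5 with 1 library left out. In scivMSC against Solvent it was 5, but 2 under TMM and 2 under DESeq2. Members called with 1 library left out ran from 3 to 3 in DNCB against Solvent, 3 to 4 in scMSC against DNCB, 5 to 5 in scivMSC against DNCB, 0 to 0 in scMSC against Solvent and 4 to 5 in scivMSC against Solvent. In scMSC against DNCB all 90 member fold changes computed under the alternatives kept their sign, and 82 of 90 did in scMSC against Solvent. The cause of these differences was not tested.

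Interferon-stimulated genes called with 1 library left out ran from 4 to 7 in DNCB against Solvent and 6 to 9 in scMSC against DNCB. In scivMSC against scMSC they were 8, but 5 under TMM, 4 under DESeq2, 1 under limma and 0 in a fit of the 2 groups alone, and from 3 (without scMSC replicate 1) to 12 (without scivMSC replicate 1) with 1 library left out, with 5 without scivMSC replicate 3. In scMSC against Solvent they were 0, but 1 under TMM, 1 under DESeq2 and 4 in a fit of the 2 groups alone, and 0 to 1 with 1 library left out, with 1 without scivMSC replicate 1 or 2. In scivMSC against Solvent they were 12, but 7 under limma, and 10 to 12 with 1 library left out. The difference of the Slfn4 to Slfn1 ratio in scivMSC against DNCB, -0.56, was -0.66 with a pseudocount of 0.1 and -0.73 from counts scaled by library totals, and -0.60 to -0.48 with 1 library left out. That of Slfn4 to Slfn2, -1.05, was -1.29 and -1.30, and -1.15 to -0.97.

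Labels number the replicates 1 to 3 in each group, but deviations of same-numbered libraries had r from -0.20 to 0.173, with 3 of 18 pairs over 0.1, so the numbers were not taken to pair the libraries. With the number as a replicate block, 4 members were called in scMSC against DNCB in place of 3, and 9 interferon-stimulated genes in scivMSC against scMSC in place of 8; the other counts of these lists were the same. Depth limits Slfn3 and Slfn9, and 3 libraries per group limit every comparison.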
